A study of Bos taurus with 3 samples.

Results

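RGS1, RGS2, RGS4, RGS5 and RGS16 code for regulators of G-protein signalling (RGS), and they are 5 of the 27270 genes counted in rumen cells of 3 newborn calves. The 5 genes were chosen by measured values, since their levels were known to differ among the cell classes of these same calves. Their levels are therefore given as a description, with no test. The rumen wall was stripped of its outer muscle layers and digested with enzymes, and 1 droplet-based 3′ RNA library was made from each calf. All 3 animals were newborn, with no treatment named in the labels, and the adult animals of the study have no libraries here. Gene names are those of the deposited tables, where each of the 5 symbols names 1 entry: ENSBTAG00000021672 for RGS1, ENSBTAG00000020620 for RGS2, ENSBTAG00000046277 for RGS4, ENSBTAG00000016341 for RGS5 and ENSBTAG00000004305 for RGS16.

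G-protein coupled receptors switch on heterotrimeric G proteins by loading their alpha subunit with GTP, and RGS proteins switch them off again by speeding up GTP hydrolysis. The 5 genes belong to the R4 group of the family, whose small proteins act on the Gi and Gq classes, RGS2 mainly on Gq. RGS1 is known for limiting the response of lymphocytes to chemokines, and RGS5 is a common marker of pericytes.

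The tables held 7529, 12043 and 11656 barcodes with 82263092, 89803289 and 106145091 unique molecular identifiers (UMIs, counted RNA molecules) in calves 1, 2 and 3. Barcodes with 500 to 4000 genes that passed the other limits numbered 4886, 10654 and 10480. After likely doublets were removed 4695, 9746 and 9601 were left, with a median of 10187, 6499 and 7416 UMIs. Their clusters were named from fixed markers as 5 classes: mural-like cells were led by ACTA2, TPM2 and HIGD1B, endothelial cells by PLVAP or CLDN5, fibroblast-like cells by LUM or COL1A2, and all 11 epithelial markers were detected in 10 of the 11 epithelial clusters. Epithelial cells numbered 4582, 8786 and 7803, fibroblast-like cells 16, 216 and 219, and mural-like cells, the contractile cells around vessels with any visceral muscle or myofibroblasts, 6, 119 and 190. Endothelial cells numbered 80, 543 and 679, immune cells 10, 70 and 695, and cells left unnamed 1, 12 and 15. Calf 1 thus gave under 20 fibroblast-like, mural-like and immune cells, and its values there rest on few molecules. A level below is a gene's UMIs in all cells of a class in a calf, per 10000 UMIs of those cells, with the mean ± SD over calves (n = 3) or an exact 95% Poisson interval that covers counting error only. A positive share is the percent of cells with at least 1 UMI after each cell was thinned at random to 2000 UMIs, with exact Clopper-Pearson 95% intervals. Where a count is 0, the limit given is what 3 counts would make.

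**Figure D1:**
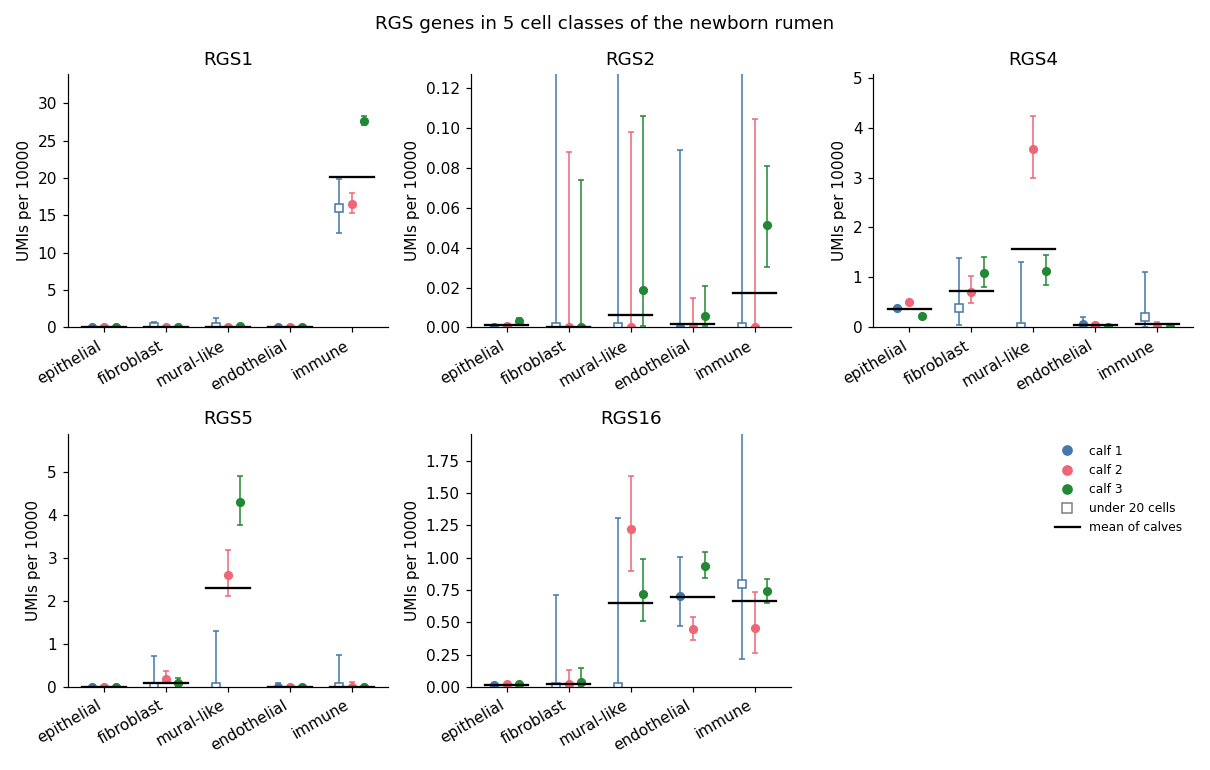
Levels of the 5 RGS genes in 5 cell classes, in UMIs per 10000; each point is 1 of 3 calves with its exact 95% Poisson interval, open squares are calves with under 20 cells, the bar is the mean of the calves, and intervals that run past the top of a panel are clipped. RGS1 reached 27.7 in immune cells of calf 3, RGS5 4.32 in mural-like cells of calf 3, and RGS16 lay between 0.446 and 0.939 in endothelial cells.

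RGS1 was found in immune cells, at the highest level that any of the 5 genes reached in a class. UMIs counted at the 3′ end do not grow with the length of a transcript. It measured 16.0, 16.6 and 27.7 UMIs per 10000 there in calves 1, 2 and 3 (20.1 ± 6.60), the first from 10 cells with 80 UMIs and an interval of 12.6 to 19.9. Epithelial cells held 0.000791, 0.00370 and 0.0296 UMIs per 10000 and endothelial cells 0, 0.0122 and 0.0746. Fibroblast-like and mural-like cells gave RGS1 UMIs in calf 3 alone, 2 and 7. The order of the means was immune, mural-like, endothelial, fibroblast-like and epithelial. The cells left unnamed, outside this order, held 0, 3.96 and 6.70, from 1, 12 and 15 cells. Immune cells stood apart from the other 4 classes in each calf, while the calves of those 4 overlapped. After thinning, 71.4, 83.3 and 92.4% of immune cells were positive, against 0, 0.105 and 0.641% of epithelial cells, taken as a background without a test. The immune share of calf 1 is from 7 thinned cells. Without thinning the shares were 90.0, 87.1 and 94.4% and 0.0873, 0.285 and 2.32%, at median depths of 5600, 4898.5 and 4676 UMIs in immune and 10299, 6714 and 7903 in epithelial cells.

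RGS1 was also set against the 7 immune markers (PTPRC, CD52, CORO1A, LCP1, LAPTM5, CD53 and TYROBP) in each class of a calf. Per 100 immune-marker UMIs, epithelial cells of calf 3 held 54.1 (46.9 to 62.1) RGS1 UMIs and immune cells 49.7 (48.7 to 50.6). In calf 2 the values were 22.5 (14.6 to 33.2) and 28.1 (25.8 to 30.4). The intervals of both classes overlapped in these 2 calves. In calf 1, with 4 RGS1 UMIs in epithelial cells, they did not: 2.67 (0.727 to 6.83) against 26.7 (21.1 to 33.2). Endothelial cells of calves 2 and 3 held 1.62 (0.334 to 4.74) and 11.6 (7.55 to 16.9), below the immune ratio of each calf. Mural-like cells of calf 3 held 50.0 (20.1 to 103), from 7 RGS1 UMIs, an interval that includes the immune ratio. The source of the RGS1 UMIs outside immune cells was not tested. Within the immune class the level varied among clusters. Antigen-presenting cells led by CD1E, CSF1R and FCER1A held 27.0 (3 cells), 22.3 and 34.8 UMIs per 10000. Their leading genes hold a dendritic (FCER1A) and a macrophage (CSF1R) marker, so they are not named further. Clusters with a T-cell marker among their leading genes held 17.3, 10.6 and 22.9 together, the first from 3 cells with 9 UMIs. Cells led by FCN1, HP and S100A9 were lowest among the clusters seen in all 3 calves, at 4.18 (3 cells), 2.19 (7 cells) and 6.58 (24 cells). In calf 3, which gave most immune cells, JCHAIN-expressing cells reached 34.1 and the CLEC9A cluster 18.1.

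RGS5 was found mainly in mural-like cells, with 325 of its 342 UMIs. It was kept out of the marker lists and of the genes used for clustering. Mural-like cells held 2.61 UMIs per 10000 in calf 2 and 4.32 in calf 3. Calf 1 gave 0 UMIs from 6 mural-like cells, which allows up to 1.06 (mean of the 3 calves 2.31 ± 2.17). That limit lies below the levels of the other calves, but those 6 cells also carried 174 UMIs per 10000 of the 11 epithelial markers, against 31.4 and 13.2 in calves 2 and 3. The most abundant of these markers over the class was KRT15, and the part of this signal in the result was not tested. Calves 2 and 3 alone had a mean of 3.46 ± 1.21. Fibroblast-like cells held 0, 0.191 and 0.0801, from 8 and 4 UMIs in calves 2 and 3. None of the 1302 endothelial cells gave an RGS5 UMI, which allows up to 0.00471 UMIs per 10000 over the 3 calves. The 21171 epithelial cells gave 3 UMIs and the immune cells 2. The order of the means was mural-like, fibroblast-like, immune, epithelial and endothelial, and with calf 1 at 0 each class overlapped with the next. Thinned shares were 28.4% (19.3 to 39.0) of mural-like cells in calf 2 and 37.5% (29.1 to 46.5) in calf 3, against 0% and 0.0131% of epithelial cells. Unthinned, they were 30.3% and 47.4%, at median depths of 2502 and 2404 UMIs, against 0.0228% and 0.0128% of the epithelial cells at 6714 and 7903.

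The mural-like cells were clustered again by themselves, a step chosen after the data were seen, and fell into 4 subclusters with more HIGD1B than MYH11 and 2 with more MYH11 than HIGD1B. HIGD1B, KCNJ8 and ABCC9 are known pericyte markers, while MYH11, CNN1 and DES belong to contractile smooth muscle. RGS5 measured 7.19 and 7.78 UMIs per 10000 on the HIGD1B side of calves 2 and 3 (53 and 118 cells). On the MYH11 side (66 and 72 cells) it measured 0.0826 and 0.248, from 2 and 6 UMIs. The intervals of the 2 sides did not overlap in either calf, for RGS5 or for RGS4. RGS4 followed the same split, with 9.21 and 2.04 on the HIGD1B side against 0.454 and 0.0413 on the MYH11 side. RGS16 had no common direction: its levels were 0.449 against 1.65 in calf 2 and 1.02 against 0.372 in calf 3. In the same cells KCNJ8 measured 5.24 and 4.68 on the HIGD1B side against 0.826 and 0.207. MYH11 itself was at 0.449 and 1.37 against 19.0 and 28.8. The largest subcluster of the HIGD1B side (106 cells) had LUM, CFD and ASPN, genes known from fibroblasts, among its leading genes. The 10 fibroblast markers summed to 45.0 and 54.5 on the HIGD1B side against 38.8 and 25.6, most of all COL3A1, and their part in the RGS4 levels was not tested. RGS4 also varied within the HIGD1B side: in calf 3 it was at 2.81 in that subcluster and at 0.448 in another (21 cells) with HIGD1B at 29.3. Calf 1 had 2 cells on the HIGD1B side and 4 on the MYH11 side, with none of the 5 RGS genes detected.

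**Figure D2:**
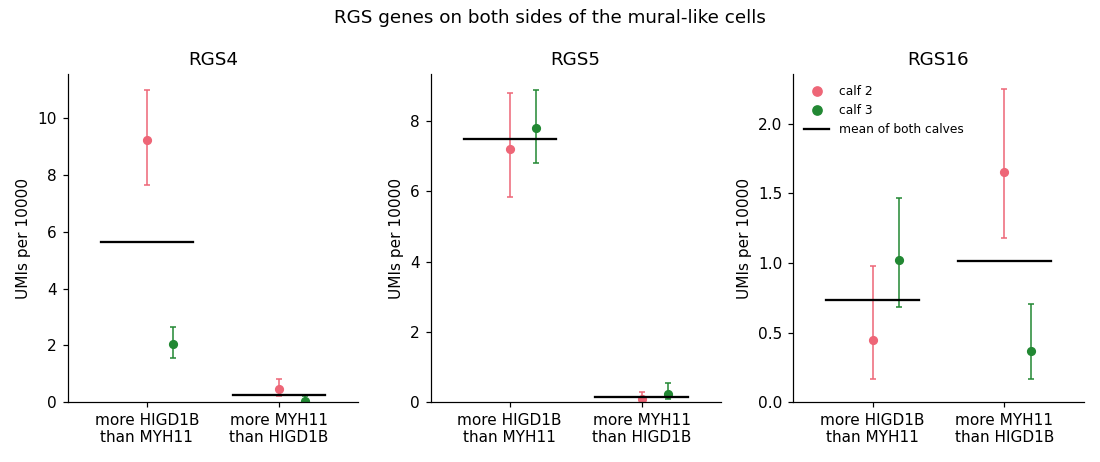
RGS4, RGS5 and RGS16 in UMIs per 10000 in mural-like cells of calves 2 and 3, split into subclusters with more HIGD1B than MYH11 and the reverse; points are calves with exact 95% Poisson intervals and bars are means of both calves. RGS5 lay at 7.19 and 7.78 on the HIGD1B side and at 0.0826 and 0.248 on the MYH11 side.

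RGS4 and RGS5 were also found in the same mural-like cells. Of 88 thinned cells of calf 2, 15 held both genes, where the product of the separate shares gives 6.25. In calf 3, 18 of 128 held both, where the product gives 9. The product is taken over both sides of the mural-like cells, which differ in RGS4 and RGS5 alike. Within the HIGD1B side alone, 14 of 36 thinned cells of calf 2 held both against 12.7, and 18 of 75 of calf 3 against 14.1. The excess was thus smaller within that side, and it was not tested against chance. The other pairs of members with RGS16 in mural-like cells lay near the product: RGS4 with RGS16 in 3 and 4 cells against 3 and 3.94, and RGS5 with RGS16 in 2 and 8 against 3.41 and 7.88. In epithelial cells, 2, 3 and 3 thinned cells held RGS4 and RGS16 together, where the products give 0.703, 3.82 and 1.37. RGS1 and RGS4 met in 3 epithelial cells of calf 3 against 2.31, and the 8 remaining pairs were not seen together in thinned epithelial cells.

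RGS4 had the highest epithelial level of the 5 genes. Its levels in epithelial cells were 0.381, 0.505 and 0.235 UMIs per 10000 (0.373 ± 0.135), from 1924, 3410 and 1613 UMIs. Of these, 923, 2101 and 884 UMIs lay in 1 cluster led by PLAC8 and KRT8, whose 10 leading genes hold 0 epithelial markers and 1 fibroblast marker, and without it the epithelial levels were 0.227, 0.233 and 0.127 and the thinned shares 4.76, 4.44 and 2.72%. Mural-like cells held 0 (allowing up to 1.06), 3.57 and 1.12 (1.56 ± 1.82), and fibroblast-like cells 0.385, 0.716 and 1.08 (0.727 ± 0.349), where calf 1 gave 2 UMIs from 16 cells and an interval of 0.0466 to 1.39. Over calves 2 and 3 alone the means were 2.34 ± 1.73 in mural-like and 0.899 ± 0.259 in fibroblast-like cells. The means thus ran from mural-like over fibroblast-like to epithelial cells, and the calves of each class overlapped with those of the next. Without calf 2 the mural-like mean was 0.561 and the fibroblast-like mean 0.733, the reverse order. With cells classed by marker gates in place of clusters, fibroblast-like cells ranked first, at 1.18. Endothelial cells (0.0725, 0.0567 and 0.0144) and immune cells (0.199, 0 and 0.0142) lay below the epithelial range, or, without the PLAC8 cluster, below it but for the 1 UMI of immune cells in calf 1, with 6 UMIs in all immune cells. Thinned shares were 7.81, 8.88 and 4.72% in the epithelium against 0, 1.01 and 0.165% in endothelial cells. Unthinned, these were 21.2, 20.0 and 12.6% at median depths of 10299, 6714 and 7903 UMIs, and 3.75, 1.66 and 0.589% at 4167, 3655 and 4390. The endothelial mean level was the lowest of the 5 classes, but without calf 1 the immune mean (0.0071) lay below the endothelial mean (0.0355). In mural-like cells the thinned shares of calves 2 and 3 were 25% and 18.8%, and in fibroblast-like cells 12% and 11.9%, of 75 and 109 thinned cells. Epithelial markers summed to 73.6, 22.8 and 18.1 UMIs per 10000 in fibroblast-like and 38.8, 13.9 and 5.94 in endothelial cells. The part of this signal in the RGS4 levels was not tested. Of the fibroblast-like clusters, the COL1A1, MFAP5 and DLK1 cluster held 1.03 and 1.72 in calves 2 and 3, and the LUM and CXCL14 cluster 0.580 and 0.722.

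Across the 11 epithelial clusters RGS4 was uneven. The cluster led by PLAC8, KRT8, KRT18 and HPGD, with DCN among its leading genes, held 1.43, 1.84 and 0.783 UMIs per 10000 in calves 1, 2 and 3, and 24.5, 26.6 and 12.9% of its thinned cells were positive. Chemokine-high cells led by CXCL2, CXCL3 and TNFAIP3 came next, with 1.28, 1.03 and 0.384 and 20.7, 14.7 and 7.04%. In every calf the PLAC8 cluster ranked above the chemokine cluster, although the calves of the 2 clusters overlapped. Cells led by the immediate-early genes FOS, ATF3 and EGR1 held 0.239, 0.309 and 0.172, and those led by IL1R2 and DLK2 0.174, 0.278 and 0.141. The S-phase-like cluster gave 0.234, 0.0990 and 0.0879 and the G2/M-like cluster 0.162, 0.0446 and 0.0203. A cluster led by mitochondrial transcripts, with a median of 3402 UMIs, held 0.577, 0.306 and 0.160, and its cells are not named further. A KRT14 cluster with a median of 1767 UMIs gave 5, 2 and 0 UMIs. By the mean of the calves, the lowest levels were in the SPINK5, CRYAB and FABP4 clusters. The spinous-like SPINK5 and KRTDAP cluster held 0.0345, 0.0290 and 0.0457. The CRYAB and ADM cluster held 0.0373, 0.0532 and 0.00826 and the FABP4 cluster 0.00715, 0.0198 and 0.00858. The CRYAB cluster overlapped with both of the others, while each calf of the SPINK5 cluster lay above those of the FABP4 cluster. The G2/M-like cluster lay below the CRYAB cluster in calf 2 and below the SPINK5 cluster in calf 3, where the KRT14 cluster had 0 UMIs. The levels of calf 3 were the lowest of the calves in both of the high clusters.

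**Figure D3:**
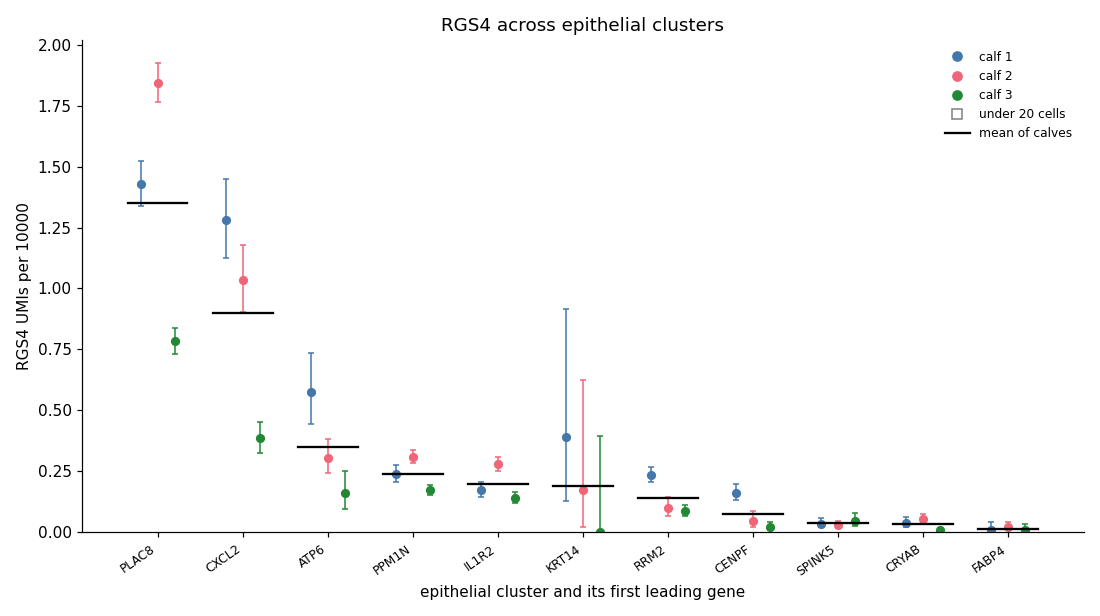
RGS4 in UMIs per 10000 in the 11 epithelial clusters, each named by its first leading gene and ordered by the mean of the calves (PPM1N stands for the FOS and ATF3 cluster, RRM2 for S phase, CENPF for G2/M and ATP6 for the mitochondrial transcripts); points are calves with exact 95% Poisson intervals and bars are means. The PLAC8 cluster lay between 0.783 and 1.84, and the FABP4 cluster between 0.00715 and 0.0198.

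The genes that differ between RGS4-positive and RGS4-negative epithelial cells were tested on sums per calf of thinned cells, with the calf as a block and RGS4 itself left out. Only RGS4 had at least 20 positive epithelial cells in every calf: 347, 760 and 361 positive against 4098, 7802 and 7289 negative cells. In edgeR's quasi-likelihood test 933 of 9858 genes (9.46%) passed an adjusted p threshold of 0.05, 389 higher in positive cells (3.95%) and 544 lower (5.52%). Positive cells were richer in the PLAC8 cluster's cells, which made up 48.4%, 60.0% and 53.7% of them and 12.7%, 16.1% and 18.0% of the negative cells. Positive cells had median mitochondrial shares of 4.39%, 4.66% and 4.43% against 5.44%, 5.72% and 5.73%, and 8986, 6000 and 6963 UMIs before thinning against 10650, 6869 and 8031. The part of these differences in the result was not tested. Within the PLAC8 cluster alone, a setting added after the data were seen, 1 of 6589 genes passed, AFF4 at a log2 difference of -0.69, and 316 had an unadjusted p under 0.05. Without the cluster 531 genes passed. The differences below thus compare mixtures of epithelial states. Without the calf as a block edgeR called 0 genes, with 500 of 9858 at an unadjusted p under 0.05, and DESeq2 with the block called 349. Both 316 of 6589 and 500 of 9858 are near the share that an unadjusted threshold of 0.05 lets through with no differences. Without calf 2 edgeR called 523, 151 higher and 372 lower, and without calf 1 750, 227 higher and 523 lower.

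Higher in RGS4-positive cells were DCN, coding for the matrix proteoglycan decorin, and genes that also lead the PLAC8 cluster. DCN measured 10.4, 8.94 and 6.72 UMIs per 10000 in the positive sums against 4.01, 3.73 and 2.59 in the negative sums of calves 1, 2 and 3. Its log2 difference was 1.31 ± 0.07 (SE; edgeR adjusted p = 1.5e-14, higher in 3 of 3 calves). PLAC8 measured 1.28, 1.28 and 0.540 UMIs per 10000 in the positive sums against 0.466, 0.351 and 0.271 in the negative sums of calves 1, 2 and 3. Its log2 difference was 1.53 ± 0.13 (edgeR adjusted p = 3.3e-10, in 3 of 3 calves). For DCN, PLAC8 and the other leading genes of that cluster, p is not separate from the cluster's larger share among positive cells. The simple-epithelium keratins KRT8 and KRT18 differed by 1.33 and 1.23 on the log2 scale, and HPGD, which inactivates prostaglandins, by 0.97. The other named genes on this side were PARM1 (1.61), CA3 (0.67), LAPTM4B (0.69), CXCL3 (0.96) and APP (0.82), all with the same sign in 3 of 3 calves. CXCL3 is also a gene of the chemokine-high cluster. Within the PLAC8 cluster, where none of these genes was called, KRT8 and CA3 had the opposite sign.

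Lower in RGS4-positive cells were markers of several epithelial states, spinous, basal and cycling cells among them. S100A12, a calcium-binding protein of the S100 family, measured 8.02, 6.82 and 6.35 UMIs per 10000 in the positive sums against 51.6, 44.5 and 31.4 in the negative sums of calves 1, 2 and 3. Its log2 difference was -2.60 ± 0.07 (edgeR adjusted p = 5.8e-23, lower in 3 of 3 calves). KRTDAP, a protein of differentiating keratinocytes, had the largest difference of the 10 named lower genes, -3.56 ± 0.18 (edgeR adjusted p = 1.1e-15, lower in 3 of 3 calves). S100A8 and S100A9 differed by -2.85 and -2.37, the fatty-acid carrier FABP5 by -2.64 and the keratin KRT4 by -2.45. S100A2, UGT1A1 and CKMT1A differed by -1.14, -1.81 and -1.93, and the mitochondrial COX1 by -0.77. Within the PLAC8 cluster, where none of these genes was called, S100A8 and FABP5 had the opposite sign. By lists, 9 of 9 spinous markers, 8 of 9 mitotic markers, 5 of 12 S-phase markers, 5 of 7 basal markers and 7 of 11 general epithelial markers were lower, beside 5.52% of all genes, and none of these lists held a higher gene. Of 3 markers of granule cells, CLDN1 was higher (0.42) and CLDN4 lower (-0.57), each with the opposite sign within the PLAC8 cluster. The median log2 differences of the first 5 lists were -2.64, -1.91, -0.56, -0.23 and -0.31, beside 0.02 over all genes tested.

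Of 57 tested genes in 4 lists of the G-protein pathway, 4 were called (7.02%), beside 9.46% of all genes, so nothing particular to the pathway is read from them. Of the other RGS family list, 4 of 21 genes had enough counts and 0 passed, and of the G protein subunits 0 of 16 did. Among effectors, receptor kinases and arrestins, 2 of 14 were higher: the calcium channel gene ITPR2 (0.54) and the phospholipase gene PLCB4 (1.10). Among receptors, 2 of 23 were higher: the Wnt receptor gene FZD10 (0.73) and the chemokine scavenger gene ACKR4 (1.68, or 0.80 without calf 2). ITPR2 kept its call whichever calf was left out, whereas PLCB4 lost it without calf 1 or 3, and FZD10 and ACKR4 without calf 2. Of the members, RGS16 was tested and did not pass (log2 difference 0.46, edgeR adjusted p = 0.749), and RGS1, RGS2 and RGS5 had too few counts. Of 35 immediate-early and heat-shock genes, 6 were higher (FOS 0.41, JUN 0.27, MYC 0.38, JUNB 0.26, IER3 0.27 and HSP90AB1 0.18) and 4 lower (HSPA1A -0.48, HSPE1 -0.45, HSPD1 -0.39 and DNAJB1 -0.43). In all, 28.6% of this list were called, beside 9.46% of all genes, where 3.95% were higher and 5.52% lower. The calls thus went both ways, with early-response transcription factor genes on the higher side and chaperone genes on both sides. With at least 2 RGS4 UMIs as the limit for a positive cell, HSP90AB1 changed sign, as did JUN, JUNB, IER3 and DNAJB1 within the PLAC8 cluster. When 1 calf was left out, the calls of FOS, HSPA1A, HSPE1 and HSPD1 held each time. The calls of JUNB (0.16 without calf 1), IER3 (0.13 without calf 1) and HSP90AB1 (0.10 without calf 1) were lost without calf 1 and also without calf 2, that of JUN without calf 2, and those of MYC and DNAJB1 (-0.87 without calf 2 and -0.16 without calf 3) without calf 3.

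RGS16 was shared by 3 classes. Endothelial cells held 0.700, 0.446 and 0.939 UMIs per 10000 (0.695 ± 0.247). Immune cells held 0.798, 0.453 and 0.739 (0.663 ± 0.184), with 4 UMIs from 10 cells in calf 1 and an interval of 0.217 to 2.04, and mural-like cells 0, 1.22 and 0.723 (0.649 ± 0.615). The calves of these 3 classes overlapped, so their order is not set by the data. Over calves 2 and 3 alone the mean was 0.596 ± 0.202 in immune and 0.973 ± 0.355 in mural-like cells, above the endothelial mean of all 3 calves in the latter. Fibroblast-like cells (0, 0.0239 and 0.0401) and epithelial cells (0.0111, 0.0223 and 0.0210) were lower and overlapped with each other. Thinned shares were 12.5, 9.33 and 12.5% of endothelial cells and 14.3, 6.67 and 12.2% of immune cells, where calf 1 had 7 thinned cells. In calves 2 and 3 they were 13.6 and 16.4% of mural-like cells. Epithelial cells, taken as a background without a test, had 0.202, 0.502 and 0.379%. Unthinned, the endothelial shares were 28.8, 14.9 and 26.7% at median depths of 4167, 3655 and 4390 UMIs, the immune shares 30.0, 17.1 and 21.9%, the mural-like shares of calves 2 and 3 16.0 and 15.3%, and the epithelial shares 1.07, 1.66 and 1.72%. Within the endothelium the PLVAP, VWF and CCL14 cluster of blood endothelial-like cells held 0.814, 0.520 and 1.29. The cluster with CLDN5, SOX17 and SOX18 among its leading genes held 0.143, 0.111 and 0.174, from 1, 5 and 19 UMIs. Of the 7 arterial markers SOX17 alone is among its 10 leading genes, so it is not named further. The PLVAP cluster was higher in 3 of 3 calves, and its lowest calf lay above the highest calf of the CLDN5 cluster. Among immune clusters the CD1E and CSF1R cells held 1.77 (3 cells, 4 UMIs), 0.571 and 1.02. The clusters with T-cell markers held 0 (3 cells, allowing up to 5.78), 0.246 and 0.540. Among the latter in calf 3, the CTSW cluster was at 0.478 (217 cells) and the CTLA4 and CD4 cluster at 1.27 (21 cells, 7 UMIs), whose interval of 0.509 to 2.61 holds the level of the CD1E cells.

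RGS2 was close to absent under the name it has in the tables. The kept cells held 2, 3 and 45 RGS2 UMIs in calves 1, 2 and 3. Calf 3 gave 18 of them in immune cells, a level of 0.0512 (0.0303 to 0.0809), against 0.00306 in epithelial cells. Immune cells of calves 1 and 2 gave 0, which allows up to 0.598 and 0.0850. Fibroblast-like cells gave no RGS2 UMI in any calf, which allows up to 0.0309 over all 451 cells. Mural-like and endothelial cells gave 1 and 2 UMIs. The calves of the classes overlapped, but for epithelial and fibroblast-like cells. The epithelial calves, at 0.000396 to 0.00306, lay above 0 but below the limit of the fibroblast-like cells. In immune cells of calf 3, 0.974% were positive after thinning and 2.45% before, against 0.0654% and 0.269% of epithelial cells. A limit bears on these values: in the tables the entry named RGS2 follows LRRN3, whereas the RefSeq annotation of assembly ARS-UCD2.0, another build than the tables' own, places RGS2 between UCHL5 and RGS13 and another gene with RGS2 as a synonym between LRRN3 and DNAJB9. The values under this name may thus not be those of RGS2 itself, and which gene they stand for was not settled.

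Other genes of the pathway showed where RGS proteins and their partners were transcribed. Of the 21 other RGS family genes listed, 20 were in the tables, and RGS10 had the highest level of them, 6.62 ± 0.585 UMIs per 10000 in immune cells. The 3 highest in endothelial cells were RGS3 0.887 ± 0.0603, RGS19 0.387 ± 0.0566 and AXIN1 0.136 ± 0.0367. In mural-like cells they were AXIN1 0.507 ± 0.179, RGS3 0.428 ± 0.0640 and RGS7BP 0.314 ± 0.290, in fibroblast-like cells RGS3 0.730 ± 0.182, AXIN2 0.494 ± 0.106 and AXIN1 0.340 ± 0.128, and in epithelial cells AXIN1 0.274 ± 0.0451, RGS19 0.148 ± 0.0197 and AXIN2 0.0739 ± 0.00562. Summed, this list reached 8.38, 9.81 and 7.85 in immune and 0.572, 0.492 and 0.619 in epithelial cells. G protein subunits were led by GNG11 17.7 ± 2.60, GNAI2 5.26 ± 1.11 and GNB2 4.47 ± 0.510 in endothelial cells and by GNAI2 7.60 ± 1.09, GNB2 4.99 ± 1.10 and GNG5 4.83 ± 0.827 in immune cells. GNAI2, a Gi alpha subunit of the class that RGS1 and RGS16 act on, was thus among the 3 highest subunits in both classes. In mural-like cells the highest were GNB2 3.23 ± 0.978, GNG5 2.97 ± 0.418 and GNAI2 2.64 ± 1.15, in fibroblast-like cells GNB2 3.48 ± 0.725, GNG11 3.43 ± 1.63 and GNG5 3.36 ± 0.416, and in the epithelium GNG5 2.56 ± 0.233, GNB2 2.39 ± 0.449 and GNB1 0.846 ± 0.115. The epithelium had the lowest summed subunit level of the 5 classes in each calf, 9.52, 8.17 and 8.12.

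Receptors differed by class. Immune cells were highest for the chemokine receptor CXCR4 and for GPR183 and CX3CR1 (CXCR4 6.49 ± 3.74, GPR183 2.90 ± 1.33 and CX3CR1 1.98 ± 0.664), and endothelial cells for the sphingosine-phosphate receptor S1PR1 (S1PR1 4.33 ± 1.99, ADGRF5 3.06 ± 0.710 and CALCRL 2.40 ± 1.33). Mural-like cells, where RGS4 and RGS5 were found, had MRGPRF 2.17 ± 0.657, EDNRA 1.63 ± 0.854 and CXCR4 1.01 ± 0.737. EDNRA codes for the endothelin receptor of vascular muscle. Fibroblast-like cells had F2R 2.48 ± 2.31, FZD1 1.99 ± 0.307 and EDNRA 1.92 ± 1.46, and epithelial cells LPAR6 1.18 ± 0.224 and LGR4 0.673 ± 0.111. Effectors were low in all classes: the highest were ITPR2 1.23 ± 0.478, ARHGEF12 0.604 ± 0.0485 and GRK2 0.271 ± 0.0356 in epithelial, ARRB2 1.21 ± 0.738, GRK2 0.850 ± 0.415 and ARHGEF1 0.691 ± 0.0807 in immune, ARHGEF12 1.21 ± 0.0769, PLCB1 0.879 ± 0.436 and ADCY4 0.821 ± 0.220 in endothelial, ADCY6 0.761 ± 0.207, GRK5 0.551 ± 0.240 and ARHGEF1 0.531 ± 0.465 in mural-like and ARHGEF12 0.638 ± 0.0897, ITPR2 0.411 ± 0.273 and ADCY6 0.409 ± 0.0448 in fibroblast-like cells. Immediate-early and heat-shock genes, which tissue digestion is known to raise, summed to 147, 158 and 221 UMIs per 10000 in epithelial cells. They summed to 262, 205 and 255 in immune, 180, 196 and 258 in endothelial, 108, 176 and 229 in mural-like, and 128, 129 and 186 in fibroblast-like cells. The highest was JUN 28.4 ± 6.04 in immune, JUN 24.4 ± 7.80 in fibroblast-like, HSPB1 32.2 ± 11.1 in endothelial, HSPB1 31.6 ± 11.7 in mural-like and HSP90AB1 28.5 ± 3.02 in epithelial cells. The part of digestion in the RGS levels was not tested.

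The genes whose levels were most like each member were found by Pearson's r of log2 levels over 55 sums of a cluster within a calf, which share libraries and cells of a calf, so the values are a description with no p. Most like RGS1 were CORO1A (r = 0.98), CD53 (0.98), FERMT3 (0.98), PTPRC (0.98) and GPR183 (0.98), genes of blood-derived cells in general. Most like RGS5 were HIGD1B (r = 0.95), DES (0.94), ACTG2 (0.94), MYH11 (0.93) and TPM2 (0.92), known from pericytes and from contractile muscle. RGS5 had UMIs in 10 of the sums, and the order of these genes differed between settings. The sums hold the mural-like cells as 1 cluster. Within it, MYH11 and DES were lower on the HIGD1B side of calves 2 and 3, where RGS5 was higher. DES was at 1.42 and 1.16 there, against 11.4 and 11.8 on the MYH11 side. Most like RGS4 were DCN (r = 0.84), MFAP2 (0.75), GPX8 (0.74), RAMP1 (0.74) and LAMB1 (0.74), and DCN was also higher in RGS4-positive epithelial cells. Most like RGS16 were MSN (r = 0.84), RAP1A (0.82), IFITM1 (0.82), ARHGDIB (0.81) and C3H1orf54 (0.80), and most like RGS2, with UMIs in 19 sums, FCN1 (r = 0.81), HP (0.78), CXCL8 (0.78), CCL4 (0.76) and FCGR3A (0.74), genes of myeloid cells. With pseudocounts of 0.01 and 1, between 1 and 4 of the 5 genes of a member were found again, and with no filter 4 for RGS1 and RGS16, 1 for RGS4 and 0 for RGS2 and RGS5.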

How the data were processed

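Each library is from 1 of 3 newborn calves. The deposited tables hold UMI counts per gene and barcode, which the authors made with Cell Ranger 3.1.0 on assembly ARS-UCD1.2. Barcodes were limited to 500 to 4000 genes, no more than 50000 UMIs and a mitochondrial share of up to 40% (26020 of 31228), and 1978 likely doublets, scored against simulated ones at 0.8% per 1000 barcodes, were removed (24042 left). Calves 1 and 2 shared 21 barcodes, 1 and 3 shared 29, and 2 and 3 shared 37. Of these, 10, 19 and 25 were among the kept cells, as separate cells of each calf.

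Counts were log-normalized, and 2000 variable genes without the 5 members were merged over calves with a written-out Harmony and clustered with leidenalg 0.10.2 (30 dimensions and resolution 0.1, then 50 dimensions at 0.8 for non-immune and 0.2 for immune cells). Clusters were named from marker lists. A cluster with more markers of another class than of its own among its 10 leading genes was left unnamed where there were over 1 of them, a limit set after the data were seen; it keeps the PLAC8 cluster, with 1 such gene (DCN) and 0 epithelial markers among its 10 leading genes but all 11 epithelial markers detected, in the epithelium. The members, lists and markers were chosen with earlier results of these data known. Thinning to 2000 UMIs left out 154, 456 and 477 shallower cells of calves 1, 2 and 3. The loss was larger in the shallow classes. In calves 2 and 3 it left 75 of 216 and 109 of 219 fibroblast-like cells, and 88 of 119 and 128 of 190 mural-like cells.

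Sums of positive and negative cells were compared with edgeR 4.0.16 in R 4.3.3 (TMM, filterByExpr, quasi-likelihood, Benjamini-Hochberg over all genes tested), with DESeq2 1.42.0 as an alternative, after the steps had been tested on simulated counts. Both sums of a calf come from the same animal, so the calf is a block. Other steps used Python 3.11.15 with numpy 2.4.6 and scipy 1.17.1. Named genes are the members, the 10 higher and 10 lower genes with the smallest p past the threshold, a log2 difference over 0.5, the same sign in 3 calves and a gene symbol, the 5 genes most like each member (log2 of the level + 0.1, genes with a mean level of at least 0.2), and from the lists the genes past the threshold and the 3 highest in a class; 1 gene that this names is not reported here. RGS12, PLCB3, ADORA3 and IER5 of the lists are not in the tables. Alternatives changed doublet removal, merging, resolution, gene and mitochondrial limits, class rules, averaging, thinning, normalization, tool, filter, block and calves.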

Additional observations from a re-analysis of the deposited data

Results flagged for a closer look

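Barcodes outside the analysed set also held UMIs of the 5 genes, and there were no control samples. The levels given for these barcodes lie above the limit of 3 counts that a count of 0 allows. Groups of 3 calves were not tested for outliers. The 1621 barcodes above 4000 genes held 0.0895 RGS1, 0.00160 RGS2, 0.176 RGS4, 0.001001 RGS5 and 0.0252 RGS16 UMIs per 10000. The 1978 barcodes removed as likely doublets held 0.599 RGS1, 0.00173 RGS2, 0.351 RGS4, 0.0208 RGS5 and 0.0722 RGS16. The other 3587 barcodes, with too few genes, too many UMIs or too many mitochondrial UMIs, held 0.193 RGS1, 0.0889 RGS4 and 0.0252 RGS16. Their RGS2 (1 UMI) and RGS5 (3 UMIs) did not pass that limit. For comparison, all kept cells together held 0.542 RGS1, 0.00251 RGS2, 0.365 RGS4, 0.0172 RGS5 and 0.0598 RGS16.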

How the results depend on the processing

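Of 1033 values under alternatives, 845 were counted as kept. These are named genes with the same direction and call, levels or shares within 1 SD over the calves, and gene counts within a set ratio. Leaving out 1 of 3 calves cannot move a mean by 1 SD, so all such levels and shares count as kept whatever their values. A further 74 levels, shares or counts moved more, 103 values of named genes lost their call and 11 changed sign. Of 36 named genes, all 36 lost their call with no block. Within the PLAC8-led cluster 34 of them were tested and 0 kept their call: 24 kept only their sign, and 10 changed sign. With at least 2 UMIs, 23 kept their call, 12 lost it and 1 changed sign. With DESeq2 7 lost their call. Without the PLAC8-led cluster 5 did, and 3 each with no filter and without mitotic and S-phase clusters. The class with the highest mean was kept in 13 of 13 settings for RGS1, RGS2 and RGS5, 12 for RGS4 and 11 for RGS16, where immune cells ranked first with no doublets removed and mural-like cells in thinned cells. These settings leave out no calf: without calf 3 immune cells gave 0 RGS2 UMIs and were not the highest class. For RGS16, immune cells ranked first without calf 3 (0.626, endothelial 0.573) and mural-like cells without calf 1 (0.973, endothelial 0.692). Marker gates gave RGS4 1.18 in fibroblast-like cells. Without the PLAC8-led cluster, also added after the data were seen, the mean RGS4 level of epithelial cells was 0.196. The HIGD1B side of the mural-like cells, added after the data were seen and with calf 1 in the mean, gave RGS4 3.75 and RGS5 4.99, and the MYH11 side RGS5 0.110.

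Mean positive shares moved with the thinning depth, which also sets which cells enter, and not in 1 direction: at 1000, 2000 and 4000 UMIs mural-like cells had 8.11%, 14.6% and 7.52% for RGS4 and 15.8%, 22.0% and 12.4% for RGS5, moves of less than 1 SD over the calves. At 1000 UMIs the means were 67.5% for RGS1 in immune, 3.82% for RGS4 in epithelial, 6.998% for RGS16 in endothelial and 6.81% in immune cells. At 4000 UMIs RGS4 had 11.7% in epithelial and 17.2% in fibroblast-like cells, and RGS16 21.9% in endothelial and 23.1% in immune cells. Unthinned shares were 17.9% for RGS4 in epithelial, and for RGS16 23.4% in endothelial and 23.0% in immune cells. In cells thinned to 2000 UMIs, with at least 2 UMIs of the gene as the limit for a positive cell, the same 3 shares were 1.27%, 2.48% and 1.31%.

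Without a replicate block, with the calf not in the model, edgeR called 0 genes in RGS4-positive cells, 0 higher and 0 lower. Of 9858 genes, 500 had an unadjusted p under 0.05 there, near the share that this threshold lets through with no differences. DESeq2 with the calf as a block called 349 (99 higher, 250 lower), and DESeq2's size factors in edgeR 931. The counts were 986 (251 higher, 735 lower) with no filter, where the median log2 difference was -0.14, 3455 (1668 higher, 1787 lower) with no thinning, 293 (31 higher, 262 lower) with at least 2 UMIs, and 725 (252 higher, 473 lower) without mitotic and S-phase clusters. They were 1 (0 higher, 1 lower) in the PLAC8-led cluster only and 531 (151 higher, 380 lower) without it. Leaving out a calf gave 523 to 960 genes, 151 to 382 higher and 372 to 578 lower, the fewest without calf 2. The sets also differed in their numbers of cells. The cause of these shifts was not tested.

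Within the PLAC8-led cluster the log2 differences of KRT8 (-0.0773), CA3 (-0.0748), S100A8 (0.0314), FABP5 (0.0333), JUN (-0.0260), JUNB (-0.134), IER3 (-0.0484), CLDN1 (-0.0202), CLDN4 (0.0844) and DNAJB1 (0.0206) had the other sign, and with at least 2 UMIs that of HSP90AB1 (-0.0124); the cause was not tested. The values of RGS2, and those of RGS5 outside mural-like cells, rest on few UMIs, and the mural-like, fibroblast-like and immune values of calf 1 on under 20 cells.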

Other observations

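An entry of the tables without a gene name, ENSBTAG00000034366, listed between UCHL5 and another unnamed entry, was looked at because of the limit on RGS2, and its values were seen before it was chosen. No name is given to it here. It held 6.38, 1.98 and 3.88 UMIs per 10000 in immune cells of calves 1, 2 and 3, from 32, 70 and 1365 UMIs. Mural-like cells held 0.710, 1.38 and 1.33, endothelial cells 0.845, 0.357 and 1.27, fibroblast-like cells 0, 0.954 and 0.240 and epithelial cells 0.0595, 0.124 and 0.225. Among immune cells the myeloid and dendritic clusters held 7.12, 2.30 and 5.04. The clusters with a T-cell marker held 0 (3 cells, allowing up to 5.78), 0.984 and 1.45.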
